A study of Drosophila melanogaster with 3 samples.

Results

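The genes described here encode the proteins of the cytosolic large ribosomal subunit of Drosophila melanogaster, the RpL genes, and the measurements are their anti-GFP chromatin immunoprecipitation (ChIP-seq) peaks. They were chosen by name, as the protein-coding genes of the Ensembl BDGP6 annotation whose symbol is RpL followed by a digit or begins with RpLP. This gave 54 of the 13945 coding genes on the 6 chromosome arms. The rule also takes in copies and relatives of subunit genes (for example RpL22-like), and among these RpL7-like, RpL24-like and RpLP0-like resemble yeast factors of ribosome assembly more closely than subunit proteins. Whole prepupae of pooled sexes carried a transgene that expresses CG44002 with GFP at its C-terminal end, and there was 1 group of 3 biological replicates. The labels give the strain as CG34406-GFP and the age as unknown. Chromatin was sonicated to 200 to 800 bp and precipitated with an antibody against GFP, and no untagged or untransformed group was part of the samples analysed. The file inventories name a control for the peak calls, which was not analysed here. The tissue that carried the precipitated chromatin cannot be told from whole animals.

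The ribosome is the RNA and protein machine that translates messenger RNA, and its large subunit forms the peptide bonds and holds the tunnel through which the new chain leaves. Its proteins are needed in matched amounts by every growing cell, and their genes are among the most actively transcribed. In Drosophila many of these genes start transcription within a stretch of C and T called the TCT initiator, in place of a more common initiator, and a loss of single copies of several of them gives the Minute phenotype of slow growth and short bristles.

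Stretches of 100 bases around the starts of 13 members are shown first, because most peak summits of bound RpL genes fell within a stretch of this kind. RpL32, RpL14, RpL34b, RpL24, RpL13A and RpL28 are the bound genes with the strongest peaks among those whose stretch could be shown, RpLP1 and RpL27 carry strings not seen in these 6, and RpL15, RpL37-1, RpL40, RpL24-like and RpL10Aa had no reproducible peak. The last 7 were chosen after their values were seen. Each stretch runs 5′ to 3′ on the strand of the gene, from 80 bases before the start to 20 bases from it, and was read from the release 6 (dm6) reference. For a bound gene the annotated start nearest to the summit was used. Capitals mark the longest unbroken run of C and T near the start and any match to a core promoter string (the DRE, M1BP, E-box, Ohler 7 or TCT strings spelled out further down).
RpL32: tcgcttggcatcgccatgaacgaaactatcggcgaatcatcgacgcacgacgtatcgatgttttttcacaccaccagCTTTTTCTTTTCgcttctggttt
RpL14: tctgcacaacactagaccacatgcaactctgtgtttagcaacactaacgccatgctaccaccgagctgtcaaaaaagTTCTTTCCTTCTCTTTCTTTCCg
RpL34b: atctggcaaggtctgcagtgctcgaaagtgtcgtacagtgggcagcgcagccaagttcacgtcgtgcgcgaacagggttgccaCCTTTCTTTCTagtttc
RpL24: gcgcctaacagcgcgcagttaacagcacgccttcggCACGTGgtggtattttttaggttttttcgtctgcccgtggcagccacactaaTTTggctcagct
RpL13A: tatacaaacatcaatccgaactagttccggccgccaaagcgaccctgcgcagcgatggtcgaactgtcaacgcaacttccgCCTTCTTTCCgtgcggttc
RpL28: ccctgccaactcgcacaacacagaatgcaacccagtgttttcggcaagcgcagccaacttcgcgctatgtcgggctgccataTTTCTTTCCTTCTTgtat
RpLP1: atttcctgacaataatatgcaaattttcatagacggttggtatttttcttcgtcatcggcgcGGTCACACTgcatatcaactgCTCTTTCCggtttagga
RpL27: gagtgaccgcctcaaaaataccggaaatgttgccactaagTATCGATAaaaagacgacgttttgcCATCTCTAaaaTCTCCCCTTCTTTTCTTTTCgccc
RpL15: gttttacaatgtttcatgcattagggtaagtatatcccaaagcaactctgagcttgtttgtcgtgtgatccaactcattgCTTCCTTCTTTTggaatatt
RpL37-1: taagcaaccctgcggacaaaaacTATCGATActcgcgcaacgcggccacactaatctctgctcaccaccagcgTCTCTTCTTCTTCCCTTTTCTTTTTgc
RpL40: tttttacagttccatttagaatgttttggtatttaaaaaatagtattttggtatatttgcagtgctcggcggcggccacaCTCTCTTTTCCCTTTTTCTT
RpL24-like: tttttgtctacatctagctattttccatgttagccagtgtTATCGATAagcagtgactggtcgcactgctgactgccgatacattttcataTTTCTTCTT
RpL10Aa: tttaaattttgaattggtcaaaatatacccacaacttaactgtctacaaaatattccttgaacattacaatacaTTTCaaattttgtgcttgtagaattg
The stretches lie at chr3R:30046142-30046241 (RpL32, minus strand), chr3L:8600926-8601025 (RpL14, plus strand), chr3R:9401207-9401306 (RpL34b, minus strand), chr2L:13395112-13395211 (RpL24, minus strand), chr3R:5624394-5624493 (RpL13A, plus strand), chr3L:3222941-3223040 (RpL28, minus strand), chr2L:419872-419971 (RpLP1, plus strand), chr3R:25685032-25685131 (RpL27, minus strand), chr3L:27267176-27267275 (RpL15, plus strand), chrX:15139348-15139447 (RpL37-1, minus strand), chr2L:4227619-4227718 (RpL40, plus strand), chr3R:11431563-11431662 (RpL24-like, minus strand) and chr3R:15037286-15037385 (RpL10Aa, plus strand). A long run of C and T sits at the start of RpL14 (22 bases), RpL27 (20), RpL28 (14), RpL32 (12), RpL34b (11) and RpL13A (10), while RpL24 has a run of 3 at this start. The choice of start matters here, since at the canonical start the run is 15 bases at RpL24, 5 at RpL32 and 7 at RpL34b. Among the members not in the reproducible list the run is 25 bases at RpL37-1, 20 at RpL40 and 12 at RpL15, all of which had weaker peaks. The 3 members with no peak in reach in any list had runs of 9 bases at RpL24-like, 9 at RpL37-2 and 4 at RpL10Aa. Runs this short were also found at the canonical starts of members with peaks, such as 4 bases at RpL31 and 7 at RpL41, which were bound, and 2 at RpL5. At RpL26, also bound, the run was 2 bases at the start nearest to the summit and 12 at the canonical start. Over the canonical starts the median run was 10 bases at the bound members and 9 at the others.

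A gene is called bound below when the summit of a peak in the list thresholded by the irreproducible discovery rate (the IDR list of 7089 peaks) lay within 500 bp of any of its annotated starts. By this measure 39 of the 54 RpL genes were bound, 72.2% with a 95% exact binomial interval of 58.4% to 83.5%, against 2724 of all 13945 coding genes, or 19.5%. The small subunit (RpS) genes were bound to a like degree, at 27 of 38 (71.1%, 54.1% to 84.6%). The genes for the large subunit of the mitochondrial ribosome (mRpL), which is descended from a bacterial one, were bound at 10 of 47 (21.3%, 10.7% to 35.7%). Each of these intervals covers counting error only, since the IDR list comes from pooled replicates.

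The same picture was seen in each replicate. Among the 7089 highest-signal peaks of each replicate, called its top N, those of replicate 1 reached 43 RpL genes, or 79.6%, against 20.8% of coding genes. Replicate 2 reached 41 (75.9%), against 20.7% of coding genes, and replicate 3 reached 37 (68.5%), against 20%. The RpL share was therefore 74.7% ± 5.66 (SD, n = 3) and that of all coding genes 20.5% ± 0.417 (SD, n = 3), and in all 3 replicates the lowest RpL share was far above the highest share of coding genes. The RpS genes were at 65.8%, 63.2% and 65.8% in replicates 1, 2 and 3, below the RpL genes each time, and the mRpL genes at 31.9%, 34.0% and 23.4%. No p-value is given, since there is a single group and the members were chosen with results known.

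**Figure D1:**
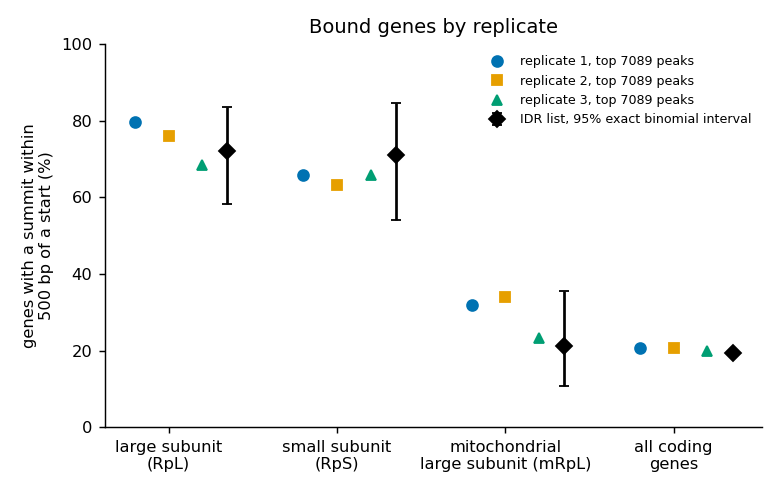
Share of genes (vertical axis, %) with a summit within 500 bp of a start in each gene group. Coloured points are the top 7089 peaks of replicates 1, 2 and 3, and black diamonds the IDR list with its 95% exact binomial interval. The RpL points sit between 68.5% and 79.6%, and those of all coding genes between 20% and 20.8%.

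Support from the separate replicates was broad. The strongest IDR summit of the gene lay inside a top N peak of all 3 replicates for 34 of the 39 bound RpL genes (87.2%), against 70.4% of all bound coding genes. The exceptions were RpL18 (replicates 1 and 3), RpL23A and RpL10Ab (replicates 1 and 2), and RpL29 and RpL35 (replicate 1 alone). Such support was found for 66.7% of bound RpS genes and 90% of the 10 bound mRpL genes. With the full lists of 30000 peaks, 37 of the 39 bound RpL genes had it, near the 94.1% of bound coding genes. When each replicate was read by itself, 46 of the 54 genes had a summit in reach in the IDR list or in the top N of at least 1 replicate. The 8 that had none were RpL6, RpL10Aa, RpL21, RpL22-like, RpL24-like, RpL36A, RpL37-2 and RpL40. A count over several lists can only equal or exceed that over 1 of them, for any set of genes. The same count over all coding genes is not given, so the 46 has no background beside it. The peaks of the RpL genes were of middle to high rank by the authors' signal value within the list, where rank 1 is the strongest. Their median rank was 2008, with a range of 566 to 6792, against 2808 for all bound coding genes, 2659 for RpS and 2788 for mRpL genes. The gap to coding genes was smaller when IDR peaks had to lie in the top N of both replicates left after 1 was dropped. Without replicate 1, 2 or 3 the RpL medians were 1921, 1935 and 1961.5, against 1972, 2080 and 2196. In the replicates' own lists the median rank of the RpL genes was 2218, 2773 and 1777, and that of coding genes 2948, 2842 and 2992.

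Summits at RpL genes sat close to the start, as did those at RpS genes, whereas over all bound coding genes they lay farther upstream. The median signed distance from the nearest start was -15 bp (quartiles -42.5 and 1.5 bp, negative values being upstream) at the 39 bound RpL genes and -153 bp (quartiles -246 and -74 bp) at all bound coding genes. It was -11 bp at RpS genes and -128 bp at mRpL genes. By replicate the RpL median was -27, -37 and -3 bp, or -22.3 ± 17.5 bp (SD, n = 3), and the coding median -148, -155 and -141 bp, or -148 ± 7 bp (SD, n = 3), so the ranges over replicates did not overlap. The number of RpL genes with the summit within 50 bp of a start was 29 of 39 (74.4%), against 10.9% of bound coding genes, 66.7% of bound RpS genes and 1 of 10 bound mRpL genes. In replicates 1, 2 and 3 the shares were 74.4%, 58.5% and 78.4%, a mean of 70.4% ± 10.5 (SD, n = 3), against 11.7%, 9.76% and 11.8% of coding genes. Genes of the cytosolic ribosome made up a visible part of all such genes, since 29 (9.73%) of the 298 coding genes with a summit this close were RpL genes and 18 (6.04%) were RpS genes.

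**Figure D2:**
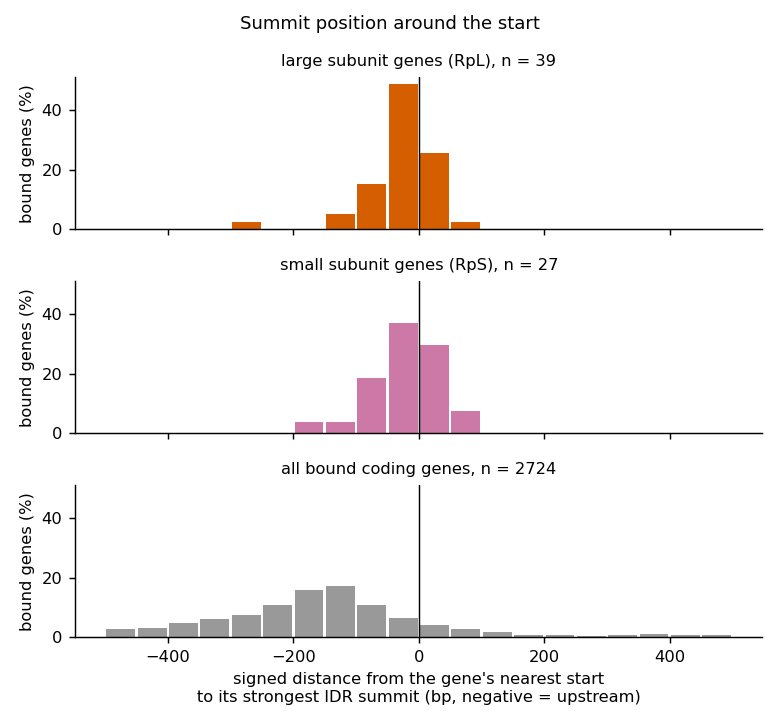
Signed distance in bp (horizontal axis, bins of 50 bp) from the nearest start to the strongest IDR summit, as a percentage of bound genes (vertical axis), for RpL, RpS and all bound coding genes. The bin just upstream of the start holds 48.7% of RpL genes, while the coding genes peak between 100 and 200 bp upstream.

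The choice of start bears on these distances, since 25 of the 54 members have more than 1 annotated start and up to 5. With only the start of the canonical transcript the share within 50 bp was 61.5% against 9.76% of coding genes, and the median distance was -19 bp. Among the bound members with a summit farther than 50 bp away were RpL23 (-270 bp), RpL34b (-141 bp), RpL32 (-120 bp), RpL22 (-80 bp), RpL23A (-74 bp), RpL4 (-66 bp), RpL18 (-55 bp), RpL28 (-53 bp) and RpL26 (91 bp downstream). RpL28 lies just outside the limit, and RpL13A, at -48 bp, just inside it. RpL23 lay upstream in every replicate, at -312, -261 and -466 bp, and its summit also lay within 500 bp of a start of CG13531.

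**Figure D3:**
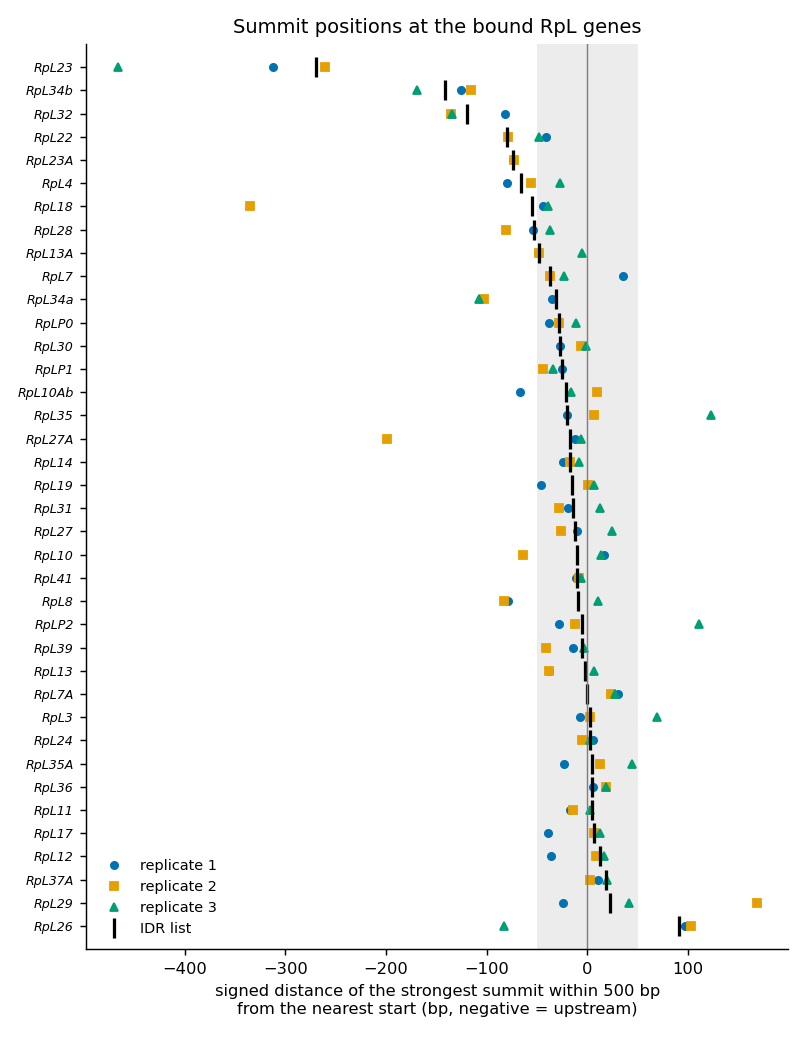
Signed distance in bp (horizontal axis) of the strongest summit within 500 bp of a start for the bound RpL genes reported (rows), in replicates 1, 2 and 3 (coloured points, from the full lists) and the IDR list (black bars); the grey band marks 50 bp on either side of the start. Most points fall in the band, and RpL23, RpL34b and RpL32 stand to its left.

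The strongest peak of the set lay at RpL7, a subunit protein with the relative RpL7-like (gene FBgn0005593 on 2L, IDR summit at 10201063, 37 bp upstream of a start). It ranked 566 in the IDR list and 380, 630 and 1197 in replicates 1, 2 and 3. The summit lay 35 bp downstream of 1 start in replicate 1. It lay 37 and 23 bp upstream of the other start in replicates 2 and 3. These summits spread over only 38 bp. RpL32, long used under the name rp49 as a reference gene for expression (3R, summit at 30046281), ranked 790 and was steady, at 846, 716 and 833. Its summits lay 82, 136 and 135 bp upstream of a start, outside the band around the start each time. RpL14 (3L, summit at 8600989) ranked 852, with 756, 982 and 813 in the replicates and summits 24, 17 and 8 bp upstream. RpL34b (3R, summit at 9401367) ranked 854, with 950, 739 and 945 and summits 126, 116 and 169 bp upstream. These 4 genes kept a high rank in every replicate, and RpL7 varied more between replicates than the other 3.

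The proteins of the stalk recruit the elongation factors to the ribosome, and all 4 genes were bound. RpLP0, which anchors the stalk, ranked 1170 in the IDR list (3L, summit at 22076064) and 1053, 1496 and 1024 in replicates 1, 2 and 3, with summits 38, 28 and 11 bp upstream. RpLP1, one of the acidic proteins it holds, ranked 2028 (2L, summit at 419927, 25 bp upstream) and 2030, 2972 and 1777. RpLP2, the partner of RpLP1, ranked 6792 with a summit 5 bp upstream and was the weakest bound member, at 6879, 6698 and 5114. RpL12, at the base of the stalk, ranked 3065 and 3364, 3897 and 3230, with its IDR summit 12 bp downstream of a start. The stalk genes thus spanned most of the range of ranks, while their IDR summits all lay between 28 bp upstream and 12 bp downstream of a start.

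The genes of the 3 proteins that reach toward the peptidyl transferase centre, RpL3, RpL8 and RpL10, were likewise bound. Their IDR summits lay 3 bp downstream and 9 and 10 bp upstream of a start. The replicates were less uniform, with summits at -7, 3 and 69 bp at RpL3 in replicates 1, 2 and 3. They lay at -79, -83 and 11 bp at RpL8 and at 16, -64 and 13 bp at RpL10. RpL8 ranked 2145 in the IDR list and 1984, 1573 and 2516 in the replicates. RpL3 ranked 3407, with 3801, 4256 and 2965, and RpL10 ranked 4661, with 5108, 5215 and 4130. RpL8 was thus the strongest of the 3 in each replicate and RpL10 the weakest. RpL10Ab, the protein of the mobile L1 stalk near the exit site for transfer RNA, ranked 4592. Its IDR summit lay 21 bp upstream, and it was within the top N of replicates 1 and 2 (3703 and 4161) and not of replicate 3 (10146).

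All 8 genes for proteins of the exit tunnel were bound. RpL4 and RpL17, which line its narrow part, ranked 1566 and 1728 in the IDR list, with summits 66 bp upstream and 7 bp downstream of a start. RpL4 was at 1396, 1951 and 1967 in replicates 1, 2 and 3, and RpL17 at 1578, 2773 and 1386. RpL39, a very small protein of the tunnel wall, ranked 2526 (5 bp upstream), with 2767, 3217 and 2011. These 3 were in the top N of each replicate. Around the tunnel mouth, where the chain emerges, RpL19 ranked 1059 (867, 1398 and 1372) with a summit 15 bp upstream, and RpL31 ranked 1907 (1989, 2807 and 1198) with a summit 14 bp upstream. RpL26 ranked 3063 (2445, 3523 and 2935). Its summits lay 97 and 103 bp downstream of 1 start in replicates 1 and 2 and 83 bp upstream of its other start in replicate 3. These summits spread over only 49 bp. RpL23A, a docking site for factors at the tunnel mouth, ranked 3009 and stood at 2273 and 2491 in replicates 1 and 2 with summits 74 and 73 bp upstream, while replicate 3 had no peak in reach among its 30000. RpL35 ranked 6750 (20 bp upstream) and differed widely between replicates, at 5163, 9758 and 10750.

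The subunit bridge genes were both bound. RpL24 ranked 1022 (2L, summit at 13395128), with 875, 1624 and 1044 and summits 6 bp downstream, 5 bp upstream and 3 bp downstream of a start. RpL41, the smallest ribosomal protein, ranked 1935, with 1757, 2042 and 1970 and summits 11, 8 and 6 bp upstream. Over the replicates the summits nearest to the IDR summit spread over 11 bp at RpL24 and 5 bp at RpL41. The median of this spread was 50 bp over the 37 bound RpL genes with a summit within 200 bp of the IDR summit in all 3 replicates, and 47 bp over 2594 such coding genes.

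The pair that binds the 5S ribosomal RNA and brings it into the subunit differed in its calls. RpL11 was bound with rank 1840, at 1906, 1741 and 2424 in replicates 1, 2 and 3, and summits 17 and 14 bp upstream and 3 bp downstream of the start. RpL5 was not in the IDR list, and its peaks ranked 10020, 8976 and 6747, so that replicate 3 alone had it in the top N. Its weaker summits were as close to a start, at 17, 1 and 0 bp. RpL40, made as a fusion of ubiquitin with the subunit protein, was not bound and ranked 11259, 7187 and 11894. The remaining group, 22 subunit proteins with no role listed here, had 16 bound genes. Beside RpL32 and RpL14, the higher of these included RpL13A (1206), RpL28 (1223), RpL30 (1322), RpL13 (1474), RpL27A (2008) and RpL37A (2282). RpL7A (2525), RpL36 (2536), RpL27 (2569), RpL23 (2772), RpL35A (2863) and RpL18 (2871) followed closely on each other. RpL7A differed between replicates, at 4168, 3720 and 1352, with summits 30, 23 and 27 bp downstream of a start. RpL29 was the weakest of these (6504), at 4571, 10050 and 9673 in the replicates.

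Among duplicated genes and relatives not placed in a role group above, 4 of 11 were bound, and these were the subunit genes RpL7, RpL22, RpL34a and RpL34b. The 11 leave out RpL24, RpLP0 and RpL10Ab, which were bound and are counted under their roles, so this share depends on the grouping. Both copies of RpL34 were bound, RpL34b with rank 854 and RpL34a with rank 1618 (1733, 1768 and 1676 in the replicates) and a summit 31 bp upstream. RpL22 ranked 1988 (1606, 3069 and 2388), and its relative RpL22-like, which is enriched in testis, had a single weak peak in reach, of rank 26819 in replicate 2 and 96 bp downstream. The IDR peak nearest to RpL22-like lay at -1097 bp and ranked 5293. Of the other pairs, RpL7 was bound and RpL7-like was not (8053, 17982 and 4271), RpL24 was bound and RpL24-like had no peak in reach in any list, and RpLP0 was bound and RpLP0-like was not (6803 and 6932 in replicates 1 and 2, none in replicate 3). RpL10Ab was bound and RpL10Aa had no peak in reach. RpL37-1 ranked 8371, 5486 and 27643 and was not bound, and RpL37-2 had no peak in reach in any list. No source used here says how reads shared between near-identical copies were placed, and the values of pairs are uncertain where their start regions are alike.

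The 15 members that were not bound were often near the limit and not without signal. In the list from the pooled replicates, from which the IDR list takes its 7089 strongest peaks, 9 of the 15 (60%) had a peak in reach, against 24.1% of coding genes not bound. The nearest to the limit were RpL7-like (rank 7454), RpL38 (7710), RpL15 (7790) and RpL5 (8731), followed by RpL36A (9878), RpL37-1 (9924) and RpL40 (12681), while RpL21 (25052) and RpLP0-like (25253) were far below it. The pooled summits of RpL38 (-7 bp), RpL5 (-4 bp), RpL36A (-6 bp), RpL15 (23 bp) and RpL37-1 (-30 bp) were close to a start, and those of RpL7-like (-294 bp), RpL40 (169 bp), RpL21 (-115 bp) and RpLP0-like (-355 bp) were not. On the other side of the limit stood RpLP2 (6792), RpL35 (6750) and RpL29 (6504). RpL38 was in the top N of replicates 1 and 2 (5324 and 5148) and RpL15 in that of replicate 1 (4635). RpL36A ranked 9227, 8844 and 10973, and RpL21 was far down in replicate 1 (24183) and replicate 2 (10751). RpL9 stood apart, since it ranked 3057 in replicate 1 and 3013 in replicate 2, with summits 22 bp downstream and 15 bp upstream, yet neither replicate 3 nor the pooled list had a peak within 5 kb of it. RpL6 had a peak in reach in replicate 1 alone (9059, 19 bp downstream).

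**Figure D4:**
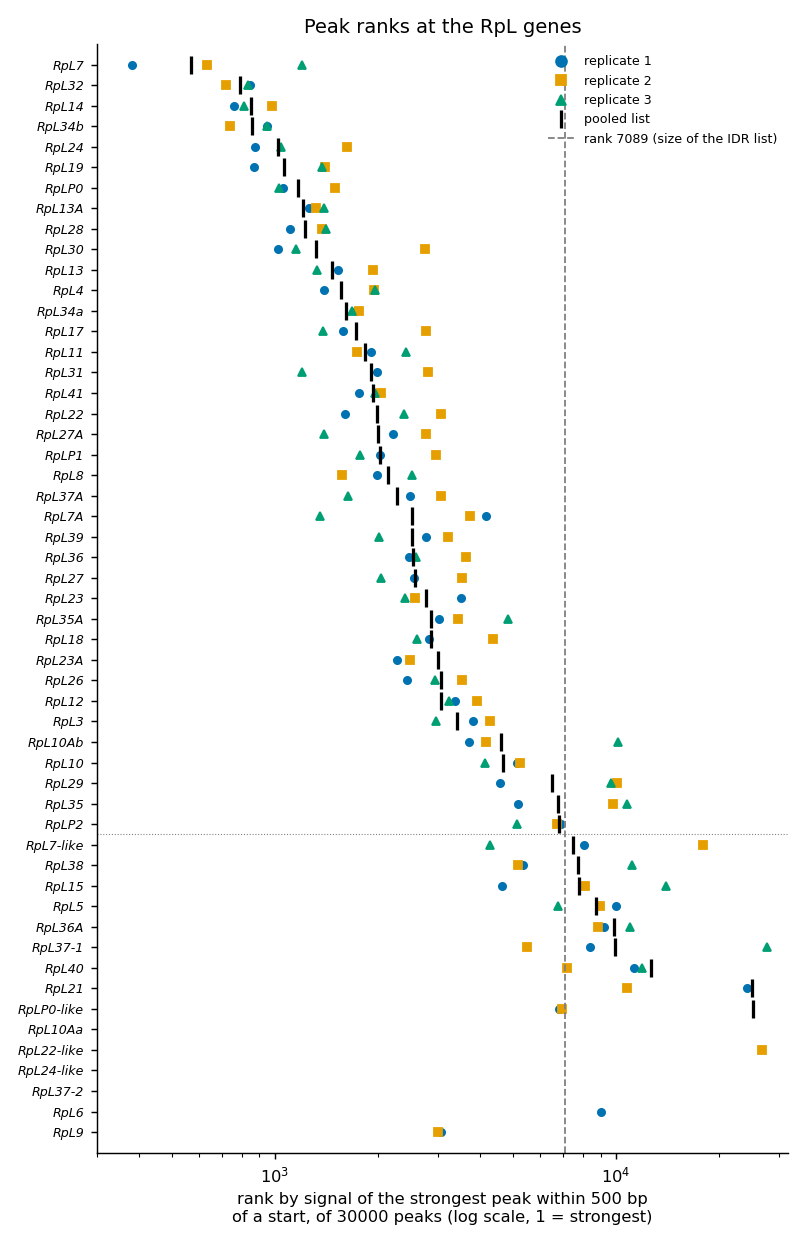
Rank by signal (horizontal axis, log scale, 1 is the strongest) of the strongest peak within 500 bp of a start for the RpL genes reported (rows), in replicates 1, 2 and 3 (coloured points) and the pooled list (black bars). The dashed line marks rank 7089, the dotted line separates the bound genes above from the 15 others, and a row without a mark had no peak in reach.

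The TCT initiator, sought as the string TCTTTTT, its variant TCTTTCT, or the forms of these with a first C (CCTTTTT as well as CCTTTCT) on the strand of the gene within 10 bp of any start, was found at 20 of the 54 RpL genes (37.0%), against 1.4% of all coding genes. It was found at 52.6% of RpS genes and 4.26% of mRpL genes. The 16 bound genes with it were RpL4, RpL7, RpL7A, RpL10Ab, RpL13, RpL14, RpL18, RpL19, RpL22, RpL27A, RpL30, RpL34b, RpL35, RpL36, RpL39 and RpLP2, and the 4 others RpL5, RpL7-like, RpL21 and RpL36A. These exact strings are strict. With the strings of 5 bases, TCTTT or CCTTT, 46 of the 54 members had one, against 6.35% of coding genes. A run of 10 or more unbroken C and T between 10 bases before and 20 bases from the canonical start, a measure chosen after the sequences were seen, was present at 31 RpL genes (57.4%), against 1.59% of coding genes. It was present at 24 of the 39 bound and 7 of the 15 other members.

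The close position of the summits was about as frequent with the TCT strings as without them. The summit lay within 50 bp of a start at 12 of the 16 bound RpL genes with the strings (75%) and at 17 of the 23 without (73.9%). The genes without these strict strings include RpL8 and RpL27, with C and T runs of 23 and 20 bases. The split therefore does not separate starts with and without a TCT initiator, and a part of the initiator was not tested. Among bound coding genes other than RpL and RpS it did so at 4 of 43 with the strings (9.30%) and 247 of 2615 without (9.45%), with median distances of -161 and -157 bp. As for binding, 16 of 20 RpL genes with the strings were bound (80%), as were 23 of 34 without (67.6%) and 43 of 155 other coding genes with them (27.7%).

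Strings of other promoter factors were sought on both strands from 250 bases before to 50 bases after the canonical start. The DRE (TATCGATA), the site of the factor encoded by Dref, was in 15 RpL promoters (27.8%), against 8.94% of coding promoters, 34.2% of RpS and 23.4% of mRpL promoters, and 5 of the 15 were of members not bound. The core of the site of M1BP, a factor of paused promoters (GGTCACACT), was in 6 (11.1%), against 5.87% of coding, 7.89% of RpS and 10.6% of mRpL promoters. These were RpL7, RpL19, RpL27, RpL27A, RpL37A and RpLP1. All 6 were bound, as were 72.2% of all members and 218 of the 818 coding genes with the string. The E-box CACGTG, a site of Myc and related factors, was in 11 (20.4%), against 4.26% of coding promoters, 6.38% of mRpL promoters and 0 of 38 RpS promoters, with an interval reaching 9.25%. The string called Ohler 7 (CATCNCTA) was in 7 (13.0%), against 6.32% of coding, 5.26% of RpS and 12.8% of mRpL promoters. Strings of the most common kind were not more frequent than elsewhere, with TATAAA of the TATA box in 23 (42.6%), against 45.3%, and GAGAG of the GAGA factor in 12 (22.2%), against 30.2%. At least 1 of the TCT, DRE, M1BP and E-box strings was present at 36 of the 54 members, 28 of them bound, against 18.6% of coding genes. No string of a site was in all members, and a match is only a description of letters.

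**Figure D5:**
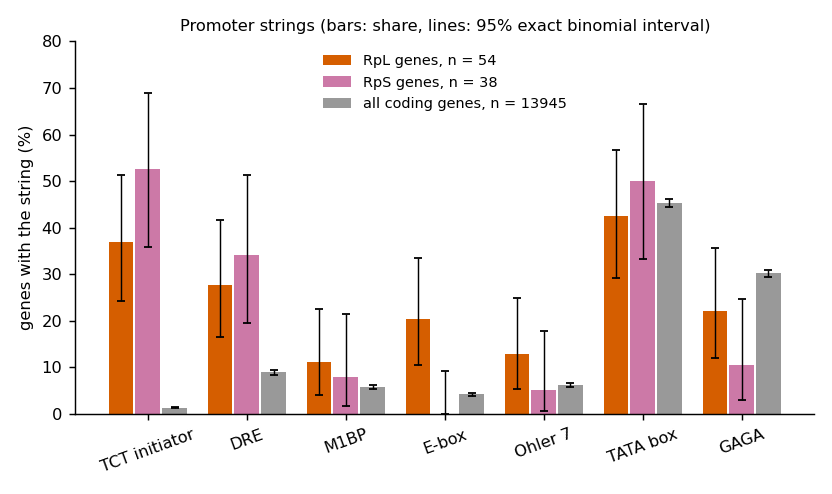
Share of genes (vertical axis, %) with each string (horizontal axis) for the 54 RpL genes, the 38 RpS genes and all 13945 coding genes, with 95% exact binomial intervals as lines. The TCT initiator is at 37.0% of RpL genes against 1.4% of coding genes, and the E-box at 20.4% of RpL and 0 RpS genes.

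The strings were also counted in the 200 bp around the summits, where they bear more directly on the peaks. The DRE was within this window at 23.1% of bound RpL genes and 5.84% of bound coding genes, the M1BP string at 12.8% and 1.87%, and the E-box at 17.9% and 1.62%. Ohler 7 was at 2.56% and 6.13%, TATAAA at 30.8% and 42.4%, and GAGAG at 15.4% and 20.7%. Since RpL summits lie nearer to the start than those of other genes, the windows do not cover the same part of the promoter. The DNA under the summits was less rich in A and T, with a median of 54% in the 100 bp around the summit (39% to 72% over the members), against 70% at bound coding genes, 54% at RpS genes and 74% at mRpL genes. The member with the lowest share was RpL22 (39%) and those with the highest RpL34b and RpL23 (72%), whose summits lay 141 and 270 bp upstream. The part of base composition in the position of the summits was not tested. Peaks were also narrow, with a median width of 268 bp (108 to 430 bp), and 26 of the 39 (66.7%) were narrower than the median IDR peak of 430 bp, against 39.1% of bound coding genes. The RpS peaks were alike, with a median width of 221 bp and 66.7% narrower than 430 bp.

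Sharing of a summit with a neighbour was near its share over all bound coding genes. The strongest IDR summit lay within 500 bp of a start of another gene at 24 of the 39 bound members (61.5%), against 55.1% of bound coding genes, and with a window of 200 bp 12 members shared it. A shared peak cannot be assigned to either gene. In 19 cases a coding gene was in reach. Among these were Dref at RpL13, Nelf-E, a subunit of the NELF pausing factor, at RpL14, and eIF1, a translation initiation factor, at RpL28. In 5 cases only noncoding genes were in reach, and 4 members had a start of a snoRNA or tRNA gene in reach (RpL10Ab, RpL14, RpL17 and RpL28). These counts, and that with a window of 200 bp, have no background over all bound coding genes beside them. When each summit was given only to its nearest start, 37 of the 39 members were still bound, against 14.8% of all coding genes by the same rule.

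Close summits were found at RpL genes with and without a divergent neighbour. A divergent neighbour, here the start of another gene on the other strand within 1000 bp upstream, was present at 37 members (68.5%), against 39.6% of coding genes, 55.3% of RpS genes and 78.7% of mRpL genes. Of these 30 were bound (81.1%), against 31.6% of divergent coding genes and 81.0% of divergent RpS genes, and of the 17 others 9 were bound (52.9%), against 11.6%. The summit lay within 50 bp at 21 of the 30 divergent (70%) and 8 of the 9 other bound members (88.9%). Among members that shared the summit with no other gene it did so at 13 of 15 (86.7%), against 11.4% of such coding genes.

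By chromosome arm the bound members were 7 of 13 on 2L (524 of 2657 coding genes), 10 of 14 on 2R (535 of 2852), 9 of 10 on 3L (557 of 2739), 8 of 11 on 3R (660 of 3421) and 5 of 6 on X (443 of 2196). The 3 members nearest to the centromere end of their arm, RpL15 on 3L (0.843 Mb), RpL5 on 2L (0.977 Mb) and RpL21 on 2L (1.27 Mb), were not bound, a grouping looked at after the values were seen. Of the coding genes as close to that end as RpL21, 3 of 67 were bound (4.48%). The next members inward were RpL30 (4.50 Mb, bound), RpL38 (4.52 Mb, not bound) and RpL10 (5.01 Mb, bound).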

How the data were processed

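The deposited files are peak lists in the narrowPeak layout on dm6 and dm3, and the dm6 lists were used: 1 list of 30000 peaks per replicate, 1 from the pooled replicates and the IDR list. The authors' signal value is a score whose scale is not stated, and it served only to rank peaks within 1 list. Aligner, peak caller, IDR threshold: not given in the sources used here. Read depth is unknown. The IDR list equals the 7089 strongest pooled peaks and has no error of its own, so values with an SD come from the top 7089 peaks of each replicate. No columns of other samples were present (0).

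Summits are the peak start plus the summit offset. Genes come from Ensembl release 115 (BDGP 6.54) without transposable elements, sequences from the RefSeq release 6 genome, whose arm lengths hold all peaks. A gene took its highest-signal summit within 500 bp of any start. The annotated starts are those of all transcripts. Ranks and distances of single genes in a replicate come from its full list. Intervals are 95% exact binomial and cover counting error only. The replicates are separate biological replicates per the labels, and their numbers pair nothing, as there is 1 group and hence no contrast, test or p-value.

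Members, lists, strings and tests were chosen with earlier results of these data known. Every member is named or counted, with rank and distance for the 8 strongest, the role groups and every unbound member that had a peak in reach. A gene that this rule names is counted but not reported here by name. Alternatives were other windows, starts, peak sets, string windows and leaving out a replicate. The TCT strings of 5 bases, the alternatives of the 50 bp share, the C and T runs, the 8-base strings and the distance to the centromere end were added after seeing the data. Python 3.11.15, numpy 2.4.6, scipy 1.17.1 and matplotlib 3.10.9 were used, and the scripts were tested on simulated data.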

Additional observations from a re-analysis of the deposited data

How the results depend on the processing

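Of the 44 alternatives, 37 left the value close to the one reported, 7 moved it and 0 were counted as reversing it. The mean share of members bound per replicate was 58.6% with 0.5 times the top N and 87.0% with 2 times the top N (31.6% of coding genes), a change that follows from the number of peaks. The share with a summit within 50 bp was 61.5% with the canonical start only and 86.7% among members that share the summit with no other gene. With a window of 200 bp, 12 members shared their summit, and with 1000 bp 34 did, which was counted as close to the 24 reported. The same counts over all bound coding genes are not given for these windows. GAGAG was in 26 of the 54 members in the longer promoter, near the 47.7% of coding genes, so its share was no longer below theirs. The TCT strings of 5 bases were at 46 members (6.35% of coding genes). Members bound numbered 34 with the peaks found in each of the 3 replicates (13.9% of coding genes). They numbered 34 with the 0.5 of the IDR list of highest signal (11.8% of coding genes). Leaving out 1 replicate gave 34 to 36 (14.6% to 15.9% of coding genes), with a median distance of -14.5 to -13 bp.

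No paired analysis was possible because there is 1 group. The pooled list was not called again without a replicate, so a replicate left out still shaped it. With 3 replicates and unknown depth, a member without a peak is one not detected here, and members near rank 7089 change sides with the list used.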

Other observations

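Strings of 8 bases were counted on both strands in the 150 bases before the start, with no string given in advance. Among the 10 that most exceeded their share of coding genes, AAATACCA was found at 11 RpL genes (20.4%, 8 of them bound) and 3.49% of coding genes, TAACAGCA at 7 (13.0%, 6 bound) and 1.18%, and CAGCCACA at 6 (11.1%, 5 bound) and 0.595%. The strings were picked for their frequency in these genes, so their counts are a description only.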
